A study of Mus musculus with 6 samples.

Results

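The GABA-A receptor subunits described here are the 7 genes *Gabra2*, *Gabra3*, *Gabra4*, *Gabra5*, *Gabrb1*, *Gabrb2* and *Gabrd*, measured in the cerebral cortex of male mice. They were found by their symbols in both deposited tables, where 18 of the 45077 probe sets carried one of them, out of 22527 gene symbols in all. Each probe set stands for a transcript and pools the signal of its short probes, and a gene can have several. Of the rest of the family, rho subunits included, 8 genes with probe sets are given further on for comparison. RNA came from the cortices of 6 mice, 2 to a group, and each was read on its own expression array (Mouse Genome 430 PM, from Affymetrix). The SAMR1 + Water group is the senescence-resistant strain used as normally aging control, the SAMP8 + Water group (SAMP8 control) is the senescence-accelerated strain given water, and the SAMP8 + STEE group is the same strain given sugarcane top ethanolic extract by mouth at 20 mg/kg (STEE-fed SAMP8, or "with STEE" beside a value). Administration lasted 30 days and went on during 8 days of behavioral tests. The mice were 16 weeks old by the labels. In the methods this is the age of the animals used, followed by acclimatization, administration and tests. The cortex was taken after these, at an age that is not stated. According to the methods the animals of the study also received BrdU in the drinking water. SAMP8 and SAMR1 are separate inbred lines without a transgene, so a strain difference covers every genetic difference between them.

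GABA-A receptors are chloride channels built of several subunits around a pore, usually alpha and beta subunits together with a gamma or a delta subunit. They carry most of the fast inhibition in the cortex, and the subunits decide where the channel sits and how it answers. Receptors that join gamma subunits with alpha 2 or alpha 3 gather at synapses. Receptors with the delta subunit, often joined by alpha 4, and many with alpha 5 lie outside synapses and carry a steady tonic current. In the forebrain, alpha 4 and delta are known for their expression in thalamus, striatum and dentate gyrus as well as in cortex.

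The values are the authors' mean log2 signals, 1 per probe set and group, rounded to 2 decimals. No value of a single mouse was used, so no spread between mice stands beside any value and no difference below was tested. A difference of these means carries a rounding error of up to 0.01 on the log2 scale. Differences were therefore read against the same differences over all probe sets, and a fold of at least 1.2 (0.263 on the log2 scale) was used to count them. The median of the mean signal over all probe sets was 4.15. Of the 18 subunit probe sets, 15 lay above it, and the 3 at or below it were a pair for *Gabra2* and 1 for *Gabrd*. Probe sets differ in how strongly they bind, so their levels say nothing about which subunit is more abundant, and only the same probe set is compared between groups.

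*Gabra2* and *Gabra3* were among the genes whose probe sets above the median signal were all higher in SAMP8 control, and the stretches just upstream of their transcription starts are shown as examples of how different the promoters of this family are. RefSeq sequences of build GRCm38.p6 were found for 6 of the 7 genes, all but *Gabrd*. The stretch of *Gabra2* lies at chr5:71095850-71096099 and that of *Gabra3* at chrX:72656920-72657169, both on the minus strand, and each is the 250 bases before a start (1 of a pair for *Gabra3*), written 5′ to 3′. Capitals mark a GC box (GGGCGG) or a TATA box (TATAAA, here on the opposite strand and so printed as TTTATA), searched on both strands.
Gabra2: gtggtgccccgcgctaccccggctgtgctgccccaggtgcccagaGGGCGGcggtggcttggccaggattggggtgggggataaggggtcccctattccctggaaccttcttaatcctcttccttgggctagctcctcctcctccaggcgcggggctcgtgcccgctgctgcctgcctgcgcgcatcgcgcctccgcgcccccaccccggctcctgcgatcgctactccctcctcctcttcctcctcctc
Gabra3: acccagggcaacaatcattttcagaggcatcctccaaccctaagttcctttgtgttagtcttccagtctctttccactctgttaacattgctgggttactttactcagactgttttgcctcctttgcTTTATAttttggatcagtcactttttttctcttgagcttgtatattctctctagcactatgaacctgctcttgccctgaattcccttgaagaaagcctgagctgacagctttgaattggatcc
The *Gabra2* stretch is 70.0% G and C and holds 1 GC box that ends 200 bases before the start, while that of *Gabra3* is 42.4% G and C and holds a TATA box that ends 118 bases before it. The median G and C content over all 32851 such stretches was 52.4%. A GC box was present in 32.7% of them and a TATA box in 12.4%. The cAMP response element TGACGTCA (1.55% of all stretches) and the EGR site GCGTGGGCG (0.536%) were in none of the 10 stretches of the 6 genes, which cover several starts for some of them. These are matches of letters, not sites of binding.

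The strain comparison asks how the cortex of the senescence-accelerated strain differs from that of the resistant strain. Most subunits had slightly higher means in SAMP8 control, led by *Gabrd* (1.27-fold) and followed by *Gabra3* (1.15-fold), *Gabra4* (1.12-fold), *Gabrb2* (1.11-fold) and *Gabra2* (1.09-fold) at the brightest probe set of each gene. *Gabra5* and *Gabrb1* were slightly lower there. In bulk tissue, more cells of a type and more RNA per cell cannot be told apart. Of the 18 subunit probe sets, 14 had a higher authors' mean in the SAMP8 control group and 4 a lower one, against 46.5% higher and 49.6% lower over all probe sets. The median difference of the 18 was 0.13 on the log2 scale, and that of all probe sets was 0.00. Only 1 of the 18, for *Gabrd*, was higher by at least 1.2-fold, where 3.68% of all probe sets were, and none was lower by as much, where 3.43% were. A share of 5.56% is near that background, so the fold count does not set the subunits apart. At a fold of at least 1.1 the count was 8 of 18 higher, against 12.4% of all probe sets, and 0 lower, against 13.5%. At 1.5-fold it was 0 in each direction, against 0.506% higher and 0.37% lower. Signal matters here, since 18.6% of the probe sets above the median signal were higher and 17.3% lower by at least 1.1-fold, and 6.4% higher and 5.23% lower by at least 1.2-fold. Among the 15 subunit probe sets above that median, 13 were higher and 2 lower in SAMP8 control, with a median difference of 0.15. Over all probe sets above it, 49.3% were higher and 47.7% lower, with a median of 0.00. Probe sets of the same gene are not separate observations. By gene, at the brightest probe set, 5 of the 7 were higher and 2 lower, against 47.1% and 49.1% of all genes.

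**Figure D1:**
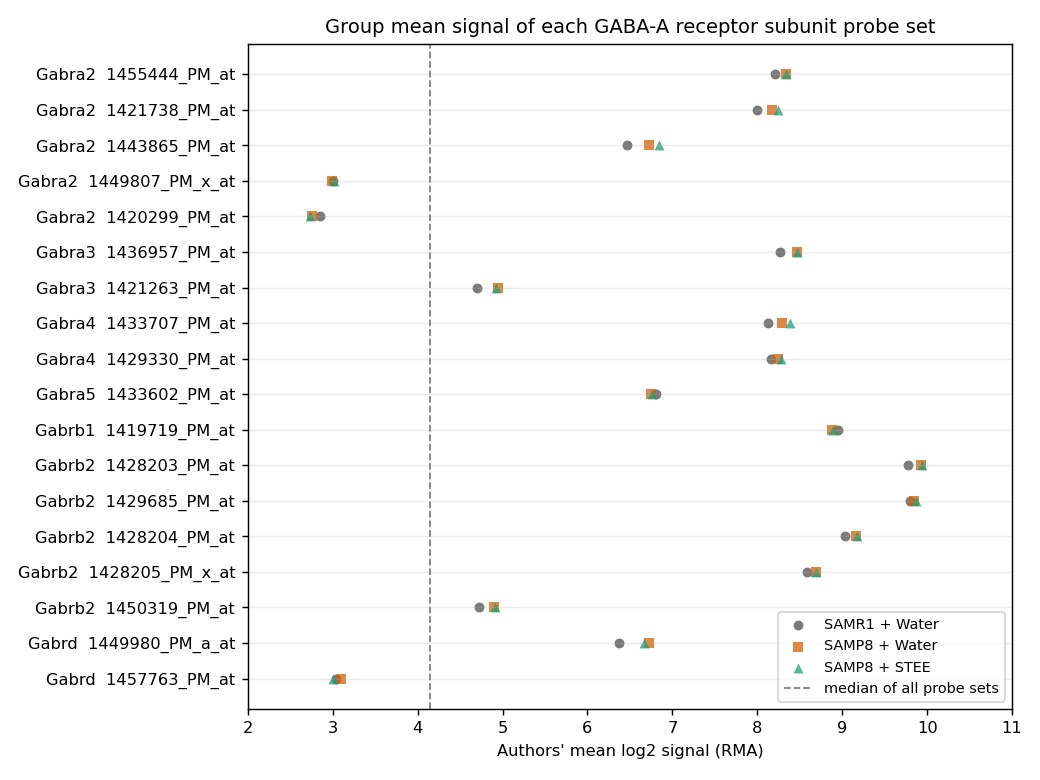
Authors' mean log2 signal (horizontal axis, RMA scale) of the 18 probe sets of the 7 subunit genes, with 1 marker for each group and a dashed line at 4.15, the median of all probe sets. The SAMR1 marker lies leftmost for 13 of the 15 probe sets to the right of the line, and the markers of both SAMP8 groups nearly coincide for most of them.

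*Gabrd* encodes the delta subunit, which takes the place of gamma in receptors outside synapses. At its brighter probe set, 1449980_PM_a_at, the authors' mean log2 signal was 6.37 in SAMR1, 6.72 in SAMP8 control and 6.67 with STEE. SAMR1 was the low group, and both SAMP8 groups lay close together. The strain difference of 0.35 was 1.27-fold, the largest among the 18 probe sets, and exceeded that of 96.5% of the probe sets above the median signal. The other probe set of the gene, 1457763_PM_at, had 3.04, 3.10 and 3.0 in the same order, below the median signal of all probe sets. Averaged over both, *Gabrd* was higher in SAMP8 control by 0.20, short of 1.2-fold.

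*Gabra3* encodes an alpha subunit of synaptic receptors, and both of its probe sets gave a similar difference. The brighter, 1436957_PM_at, had 8.27 in SAMR1, 8.47 in SAMP8 control and 8.47 with STEE. The dimmer, 1421263_PM_at, had 4.70, 4.95 and 4.92. SAMP8 control was thus higher by 0.20 and 0.25 on the log2 scale, or 1.15-fold and 1.19-fold, and the STEE-fed group stayed within 0.03 of it. These differences exceeded those of 89.0% and 92.6% of the probe sets above the median signal.

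*Gabra2* encodes the alpha 2 subunit, known from synapses on pyramidal cells, and had 5 probe sets. The brightest, 1455444_PM_at, had 8.21 in SAMR1 and 8.34 in both SAMP8 control and STEE-fed SAMP8. The next, 1421738_PM_at, had 8.00, 8.17 and 8.24, and 1443865_PM_at had 6.47, 6.73 and 6.84. For these 3 the strain difference was 0.13, 0.17 and 0.26, with SAMR1 the lowest group each time. The last of them came just short of 1.2-fold, by less than the rounding error. Both dim probe sets went the other way or nowhere: 1449807_PM_x_at had 3.0 in SAMR1 and 2.99 in SAMP8 control, and 1420299_PM_at had 2.85 and 2.76.

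*Gabra4*, the alpha subunit that often joins delta, had 2 probe sets of nearly equal signal. At 1433707_PM_at the authors' mean was 8.13 in SAMR1, 8.29 in SAMP8 control and 8.39 with STEE. At 1429330_PM_at it was 8.16, 8.24 and 8.28. Both put the groups in the same order, SAMR1 lowest and STEE-fed SAMP8 highest, with strain differences of 0.16 and 0.08.

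*Gabrb2* encodes the beta 2 subunit, a widespread beta subunit of the cortex, and its 5 probe sets all lay above the median signal. SAMP8 control exceeded SAMR1 at each of them, by between 0.05 and 0.18. At the brightest, 1428203_PM_at, the means were 9.78 in SAMR1, 9.93 in SAMP8 control and 9.94 with STEE. The 5 differences had an SD of 0.05, smaller than the median SD of 0.085 over the 9633 genes with at least 2 probe sets. This SD describes how far probe sets of a gene disagree, not how far mice do.

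*Gabra5* and *Gabrb1* were the 2 genes with a lower mean in SAMP8 control, each with a single probe set. *Gabra5*, the alpha subunit of tonic receptors best known from hippocampus, had 6.81 in SAMR1, 6.75 in SAMP8 control and 6.76 with STEE. *Gabrb1*, a beta subunit, had 8.95, 8.88 and 8.89. Their strain differences of -0.06 and -0.07 lay well inside the range of all probe sets above the median signal, of which 31.4% and 29.0% had a lower value.

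**Figure D2:**
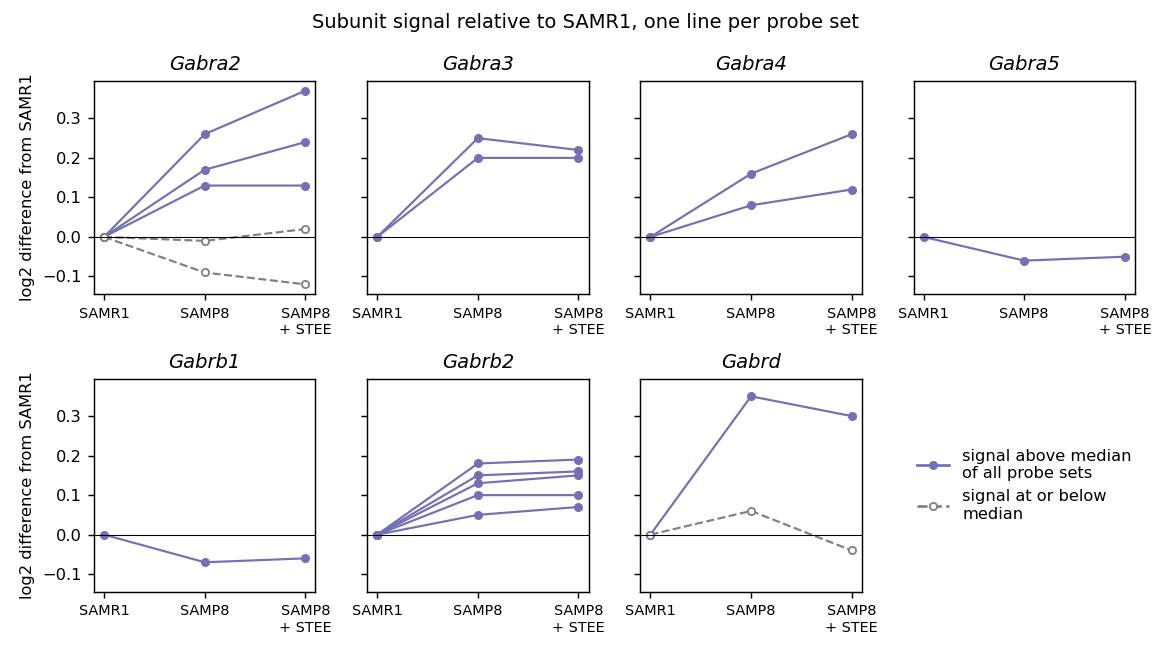
Difference from SAMR1 (vertical axis, log2 scale) of the authors' mean of SAMP8 control and STEE-fed SAMP8, with 1 panel per gene and 1 line per probe set; broken grey lines are probe sets at or below the median signal. Every line starts at 0 for SAMR1. In both SAMP8 groups the lines of *Gabra3*, *Gabra4* and *Gabrb2* lie above 0 and those of *Gabra5* and *Gabrb1* between -0.07 and -0.05. Steps from SAMP8 control to STEE-fed SAMP8 lie between -0.10 and 0.11.

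The comparison of STEE-fed SAMP8 with SAMP8 control asks how the cortex differed when the same strain was given the extract. Differences of the subunits were small. Across the 18 probe sets they ran from -0.10 to 0.11 on the log2 scale, with a median of 0.01, 11 higher, 4 lower and 3 equal to 2 decimals. Over all probe sets 47.3% were higher and 48.1% lower, with a median of 0.00. No probe set was higher by at least 1.2-fold, where 1.03% of all probe sets were, and none was lower, where 0.976% were. The count was also 0 in each direction at 1.1-fold, which 8.25% of all probe sets exceeded upwards and 8.00% downwards, and at 1.5-fold, which 0.0222% and 0.0577% exceeded. The median absolute difference was 0.025 for the 18 probe sets and 0.06 over all.

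Among single genes, *Gabra4* had the largest difference with STEE at the brightest probe set, 0.10, with 0.04 at the other. *Gabra2* was higher by 0.07 and 0.11 at 2 of its probe sets and equal at the brightest. The 5 probe sets of *Gabrb2* stayed between 0.00 and 0.02, and a smaller range was found in only 5.83% of genes with at least 2 probe sets. *Gabrd* differed by -0.05 at the brighter probe set and by -0.10 at the dim one. *Gabra3* (0.00 and -0.03), *Gabra5* (0.01) and *Gabrb1* (0.01) were equal to SAMP8 control within 0.03.

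**Figure D3:**
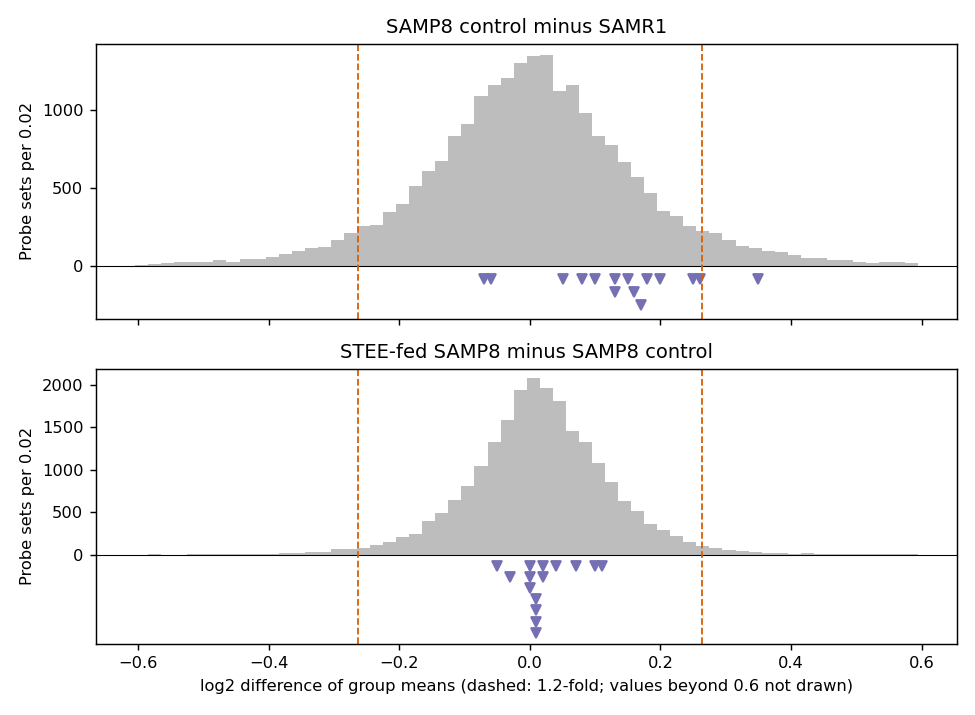
Number of probe sets above the median signal (vertical axis, bins of 0.02) by log2 difference of group means for the strain comparison (top) and the STEE comparison (bottom); triangles are the 15 subunit probe sets above that median, and dashed lines mark 1.2-fold. In the top panel 13 triangles lie right of 0 and 1 lies past the line, while in the bottom panel all lie between -0.05 and 0.11.

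STEE-fed SAMP8 and SAMR1 stand in separate tables, and their means were set side by side because the SAMP8 control means were identical in both tables for every probe set. The strain comparison and the STEE comparison use the same SAMP8 control arrays, so their values are not independent. In STEE-fed SAMP8, 14 of the 18 probe sets were higher than in SAMR1 and 4 lower, with a median difference of 0.14, against 43.7% higher and 52.4% lower over all probe sets, with a median of -0.01. Of the 18, 2 were past 1.2-fold upwards, against 4.6% of all probe sets, and none was lower by as much, against 3.25%. They were 1443865_PM_at of *Gabra2*, at 0.37, and the brighter probe set of *Gabrd*, at 0.30. At 1.1-fold the counts were 9 higher, against 13.7%, and 0 lower, against 13.9%, and at 1.5-fold 0 in each direction, against 0.615% and 0.41%. *Gabra4* stood just outside with 0.26. *Gabra3* differed by 0.20 and 0.22, *Gabrb2* by 0.07 to 0.19, *Gabra5* by -0.05 and *Gabrb1* by -0.06.

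The 8 further subunit genes were read in the same way from 15 probe sets. Of these probe sets, 3 lay above the median signal, 7 had a higher and 8 a lower mean in SAMP8 control, and none passed 1.2-fold. At the brightest probe set of each gene, 2 of the 8 had higher and 6 lower means in SAMP8 control, from -0.18 to 0.08. Read the same way, 1 of the 7 genes described above (*Gabrd*) was higher by 1.2-fold and none lower, against 3.68% and 3.19% of all 22527 genes. With STEE it was 0 of 7 in each direction, against 1.1% and 0.923%, and between STEE-fed SAMP8 and SAMR1 1 higher and 0 lower, against 4.44% and 2.93%. The gamma subunit gene *Gabrg1* had 6.60 in SAMR1, 6.48 in SAMP8 control and 6.40 with STEE. *Gabrg3*, also a gamma subunit, was read at 5.18, 5.22 and 5.30. Its other probe sets, none above the median signal, were higher in SAMP8 control too, by up to 0.26 at 1439717_PM_at. That probe set differed by 0.30 between STEE-fed SAMP8 and SAMR1, the only 1 of the 15 past 1.2-fold there. The brightest probe sets of *Gabra6*, *Gabre*, *Gabrp*, *Gabrq*, *Gabrr1* and *Gabrr2* did not exceed the median signal. *Gabra6* is typical of cerebellar granule cells and the rho subunits of retina.

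**Figure D4:**
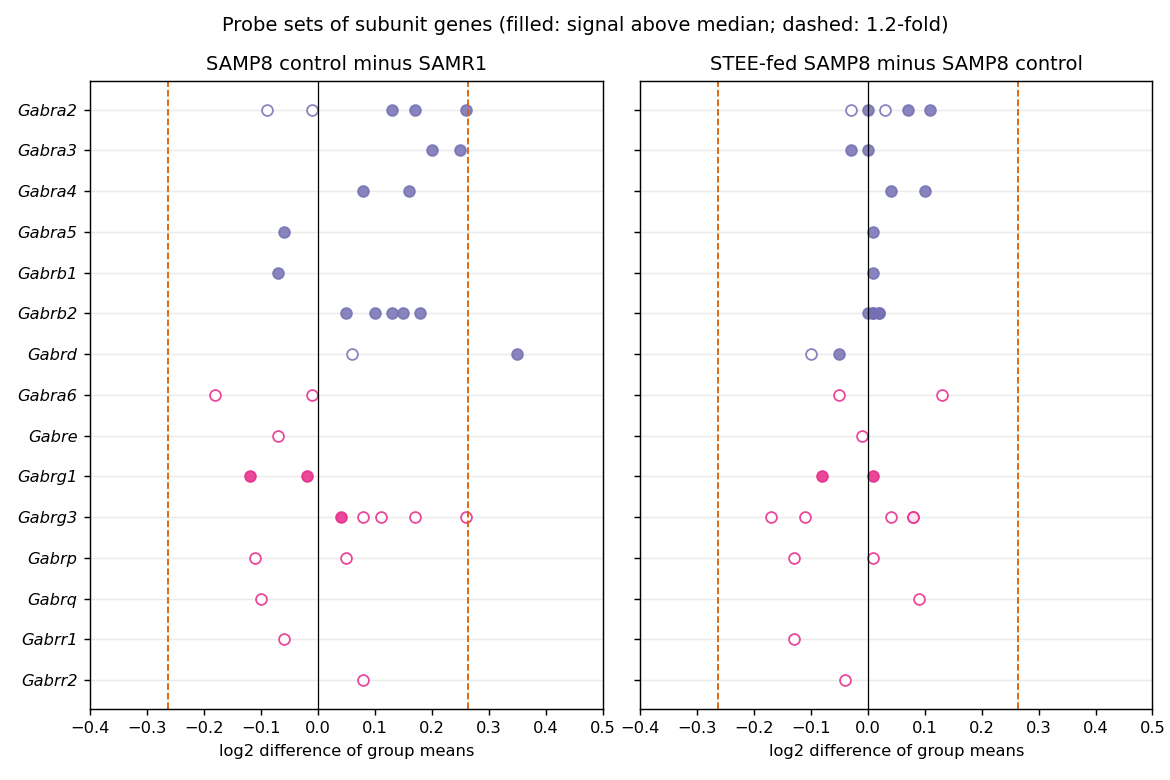
Log2 difference of group means (horizontal axis) of every probe set of the 7 subunit genes (purple) and of 8 further subunit genes (pink), for the strain comparison (left) and the STEE comparison (right); filled points lie above the median signal and dashed lines mark 1.2-fold. On the left all filled points lie between -0.12 and 0.35, while on the right all points lie between -0.17 and 0.13.

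Several subunit genes lie next to each other in clusters, and neighbours had strain differences of both signs. In the RefSeq gene table of GRCm38.p6, *Gabrg1*, *Gabra2*, *Gabra4* and *Gabrb1* follow one another on chromosome 5. Their strain differences at the brightest probe set were -0.12, 0.13, 0.16 and -0.07. *Gabra4* and *Gabrb1* overlap at their ends in that table and had opposite signs. On chromosome 7, *Gabrg3* and *Gabra5* differed by 0.04 and -0.06. On chromosome X, *Gabra3* differed by 0.20, and the dim *Gabre* and *Gabrq*, which precede and follow it among the subunit genes shown, by -0.07 and -0.10.

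Genes that hold GABA-A receptors in place or carry them to the membrane were read from a list of 19, of which 17 had a probe set. In SAMP8 control 11 of them had higher and 6 lower means, with a median difference of 0.03, and 1 passed 1.2-fold. It was *Plcl2*, a phospholipase C-related protein that binds receptor-associated proteins, with 6.98 in SAMR1, 7.48 in SAMP8 control and 7.59 with STEE. *Gphn*, the gephyrin scaffold of inhibitory synapses, had 8.16, 8.18 and 8.22. *Nlgn2*, the neuroligin of inhibitory synapses, had 8.28, 8.20 and 8.23. With STEE none of the 17 passed 1.2-fold, from -0.15 for *Hap1* to 0.11 for *Plcl2* and *Slitrk3*, an adhesion protein of inhibitory synapses. *Hap1*, which takes part in carrying receptors along microtubules, had 7.03, 6.90 and 6.75, so that only the difference between STEE-fed SAMP8 and SAMR1, -0.28, passed 1.2-fold. The GABA-B receptor gene *Gabbr1* had 9.99, 10.00 and 9.96.

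Of 7 genes for making, packing, taking up and breaking down GABA, 3 had higher and 4 lower means in SAMP8 control, and 1 passed 1.2-fold. *Slc6a11*, the GABA transporter GAT-3 of astrocytes, had 7.29 in SAMR1, 6.43 in SAMP8 control and 6.39 with STEE, a strain difference of -0.86. *Gad1*, which makes GABA, had 10.67, 10.91 and 10.79, and *Slc32a1*, which loads it into vesicles, had 8.13, 8.28 and 8.25. These were the highest strain differences of the list. *Gad2*, which also makes GABA, differed by 0.05, and *Slc6a13*, *Abat* and *Aldh5a1* by -0.19, -0.06 and -0.12. No gene of this list passed 1.2-fold with STEE, where the range was -0.12 to 0.03. The chloride transporters *Slc12a5* and *Slc12a2*, which set the direction of the current, differed between the strains by 0.08 and -0.05 and with STEE by -0.02 and -0.08.

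Markers of other brain regions moved with the strain comparison as well. All 9 striatal marker genes had higher means in SAMP8 control, by 0.32 to 0.89, and the mean of their log2 signals was 7.72 in SAMR1, 8.32 in SAMP8 control and 8.38 with STEE. Of 8 thalamic markers, 7 were lower and 1 higher, from -0.97 to 0.01, with a mean over the list of 6.80, 6.39 and 6.24. All 8 markers of hippocampus and dentate gyrus were lower, from -1.1 to -0.05, with list means of 4.60, 4.25 and 4.29, and 5 of them did not exceed the median signal. All 5 oligodendrocyte markers were lower too, from -0.63 to -0.07, with list means of 9.74, 9.43 and 9.43. Of 6 choroid plexus markers 5 were lower, from -1.96 to 0.02 over the list, and only 2 exceeded the median signal. *Ttr* had 10.2 in SAMR1, 8.24 in SAMP8 control and 9.33 with STEE. *Clic6*, the other above the median, had 5.25, 5.07 and 5.08. No marker of cerebellum, astrocytes or microglia passed 1.2-fold in the strain comparison, where the 3 lists ran from -0.21 to 0.21. Only 3 of the 6 cerebellar markers exceeded the median signal. The cortical excitatory markers *Slc17a7*, *Tbr1*, *Neurod6* and *Camk2a* were all above the median signal, as were all striatal and thalamic markers. They differed between the strains by -0.25 to 0.16, with list means of 8.54, 8.53 and 8.67 for the excitatory markers. Of 6 interneuron markers, 5 were higher in SAMP8 control, from 0.05 for *Gad2* to 0.87 for *Vip*, and *Pvalb* differed by -0.09, with list means of 8.76, 9.0 and 9.0. The part of these markers in the subunit differences was not tested.

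**Figure D5:**
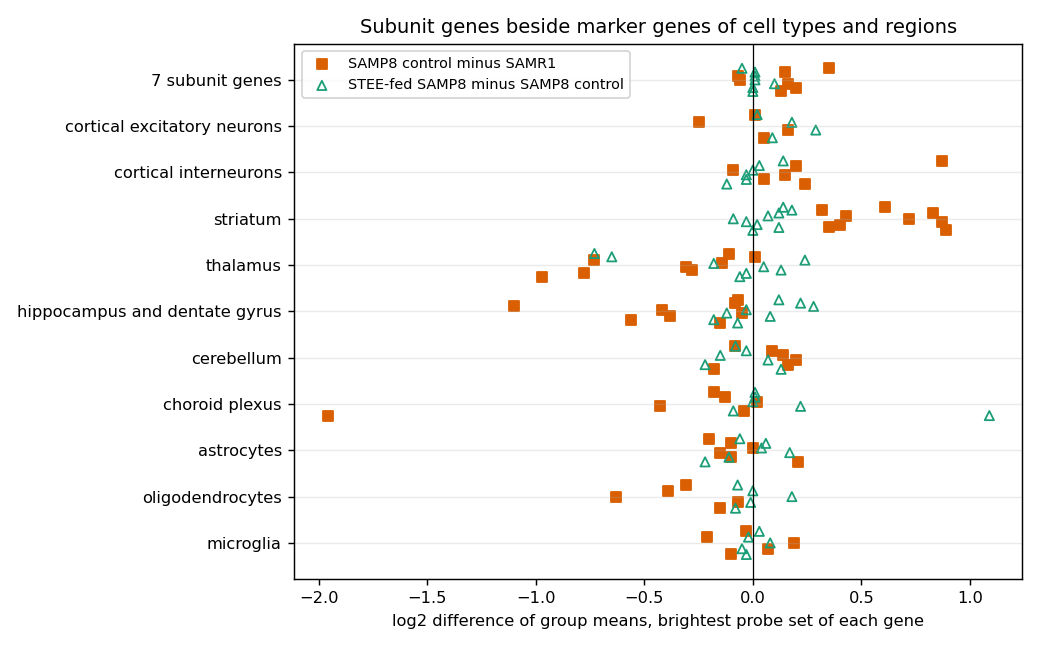
Log2 difference of group means (horizontal axis) at the brightest probe set of each gene, for the 7 subunit genes and for marker genes of 10 cell types and regions; orange squares are the strain comparison and open green triangles the STEE comparison. The orange squares of the striatal list lie between 0.32 and 0.89, to the right of all subunit genes but *Gabrd* at 0.35, and those of the thalamic and hippocampal lists lie mostly left of 0.

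With STEE, the striatal markers differed by -0.09 to 0.18 and none passed 1.2-fold, like the subunits. Among thalamic markers *Calb2* and *Zic1* differed by -0.73 and -0.65 while the rest lay between -0.18 and 0.24. Markers of hippocampus and dentate gyrus ran from -0.18 to 0.28, with *Cabp7* past 1.2-fold. *Ttr*, at 1.09, was the only choroid plexus marker past it, and the others lay between -0.09 and 0.22. The 4 excitatory markers were higher by 0.02 to 0.29, with *Tbr1* past 1.2-fold. Among the 7 subunit genes, the largest positive values in that comparison were 0.10 for *Gabra4* and 0.07 and 0.11 for *Gabra2*. The other probe set of *Gabra4* had 0.04. *Gabra2* had 0.00 at its brightest probe set and 0.03 and -0.03 at its dim ones. The further subunit gene *Gabra6* had 0.13 and -0.05, both below the median signal.

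The gene with the widest range over the 3 groups was *Gabrd*, at 0.35. Of 11966 other genes read at their brightest probe set at or above the median signal, *Ebp* had the same 3 means relative to their own average, to 2 decimals, with 5.38, 5.73 and 5.68. *Creld2*, *Exog*, *Gtf2a1* and *Ifitm3* came next with a root mean square distance of 0.00471 each, and 44 genes lay within 0.02. Genes at an equal distance were taken in alphabetical order, so others may share that distance. This likeness rests on 3 group means.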

How the data were processed

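RNA of cerebral cortices was read on Affymetrix 430 PM arrays, 1 for each mouse, and the 2 mice of a group were assigned by sample title. Per the labels and methods, the authors summarised the arrays with RMA in Expression Console and averaged groups in Transcriptome Analysis Console. The deposited values are log2 and are these bi-weight group averages for 45077 probe sets, rounded to 2 decimals. The 6 columns of linear fold changes and of unadjusted and FDR-adjusted significance hold the authors' own comparisons and were not used. Symbol entries were split at each semicolon, which gave 22527 genes, and 5694 probe sets carried no symbol.

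Differences of the log2 means were computed with Python 3.11.15, numpy 2.4.6 and pandas 2.3.3, drawn with matplotlib 3.10.9, and checked on simulated data. A gene was represented by its probe set with the highest mean signal. A fold of at least 1.2 was counted, with 1.1 and 1.5 as alternatives, beside the mean or median over probe sets, a filter on low signal, the exclusion of probe sets that may cross-hybridise, and centring on the group median. The rule for named genes took the 7 subunits at every probe set, further subunits, listed pathway genes past 1.2-fold or most changed in their list, and the 5 genes nearest to the subunit with the widest range. *Gphn*, *Nlgn2*, *Slc32a1* and the markers were named for their roles after their values were seen. *Gad2*, *Slc6a13*, *Abat* and *Aldh5a1* were named to complete their list, also after their values were seen. The subunits and all lists were chosen with earlier results of these data known, and some genes of the lists are not reported here. With 2 arrays behind a mean, precision is limited by their number.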

Additional observations from a re-analysis of the deposited data

How the results depend on the processing

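The median strain difference of the 7 genes, 0.15 on the log2 scale, ranged from 0.12 to 0.16 under the other choices, that with STEE was 0.01 under each of them, and that of STEE-fed SAMP8 against SAMR1, 0.16, ranged from 0.13 to 0.19. The number of genes higher by at least 1.2-fold was 1 between the strains and 1 between STEE-fed SAMP8 and SAMR1 (*Gabrd* in each). It became 4 and 4 at 1.1-fold, against 12.4% and 13.9% of all genes. At 1.5-fold it was 0 and 0, against 0.79% and 0.803%. With the mean or the median over a gene's probe sets it was 0 and 0. *Gabrd* was then higher by 0.20 and 0.13, since its dim probe set enters the mean. *Gabra2* in STEE-fed SAMP8 against SAMR1 went from 0.13 to 0.25 with the mean over its probe sets at or above the median signal. With each group centred on its median the second count was 2, because *Gabra4* moved past the threshold by 0.01. Of 35 single-gene values in each comparison, 33, 35 and 32 moved by less than the median SD among probe sets of a gene (0.085, 0.065 and 0.085), and 0 took the other sign. Many of these values could hardly move, so the tally says little about robustness. *Gabra5* and *Gabrb1* have a single probe set, and excluding probe sets that may cross-hybridise changed none of the 7 genes. Centring moved each gene by no more than 0.01. Leaving out a replicate was not run, since the deposited columns are group means. No paired analysis was possible because these columns carry no replicate numbers. Signal limits the 3 dim probe sets, 2 of *Gabra2* and 1 of *Gabrd*.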
